A study of Saccharomyces cerevisiae with 167 samples.

Results

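Baker's yeast meets many stresses with one shared programme of mRNA changes, and the 56 genes described here are those that went opposite ways in heat shock and in stationary phase. They were chosen from the mRNA arrays themselves: a gene was a member when its mean log2 ratio over 3 heat shock arrays and its mean over 3 stationary phase arrays had opposite signs and both were at least 0.6 from 0. Of 6060 open reading frame (ORF) probes, 56 met this rule. In 20 of them, called the heat-higher genes, mRNA was higher after heat shock and lower in stationary phase, and in 36, the heat-lower genes, the reverse. For comparison, 342 ORFs were past 0.6 above 0 in both stresses, 470 were past it below 0 in both, and 1986 had opposite signs of any size.

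The arrays were dual-colour spotted arrays of Saccharomyces cerevisiae with 1 probe for each ORF and probes for the regions between genes. Each value is the log2 ratio of 2 samples hybridised together, set to a median of 0 on each array. A change shared by most probes is thereby removed, so all directions given below are relative to the array median. The mRNA arrays that chose the members set total RNA of heat-shocked against unstressed cells, and of stationary against log phase cells (3 arrays each). On direct chromatin arrays, crosslinked chromatin immunoprecipitated for Myc-tagged histone H4, or for acetylated H4, was compared in the same way (3 arrays per protein and stress). H4, acetylated H4 and their ratio were also measured in each of the 4 states separately, 3 arrays each, the first and second against genomic DNA. In the titles of all these H4 arrays, heat shock is 39 °C and unstressed is 30 °C. The motor subunit of SWI/SNF, Snf2, carried a Myc tag and was measured over input DNA in heat-shocked (5 arrays) and unstressed cells (3 arrays). Titles of the unstressed Snf2 arrays give 30 °C. Those of its heat shock arrays, and of the mRNA arrays that chose the members, give no temperature. Heat shock time courses covered snf2 deletion and wild-type (WT) cells. For these, poly(A) RNA was hybridised against RNA of unstressed WT cells at 0, 30, 60, 300 and 900 s. H4 and acetylated H4 were set against genomic DNA at 7 time codes, T0 to T900, whose unit the chromatin labels do not give. Single arrays set 39 °C against 30 °C in WT and in snf2, chd1, isw1 and isw2 deletion cells, and deletion against WT cells. Nothing in the labels says whether the arrays of a group stand for separate cultures, so each p-value rests on array-to-array spread, which may be technical. In such bulk ratios, fewer cells with a transcript and less of it per cell cannot be told apart.

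The deleted SNF2 gene was checked first. On the mRNA time course at 0 s the SNF2 probe was -0.09 and -0.09 on the arrays labelled snf2 deletion, against 0.24 and 0.56 in WT, a difference of -0.49 that missed the threshold (adjusted p = 0.168). On the H4 time course it lay between -2.80 and -0.85 on 20 snf2 deletion arrays and between -0.12 and 0.42 on 20 WT arrays, with no overlap. Its acetylated H4 values did overlap, between -3.09 and -1.20 on 19 snf2 deletion arrays and between -1.52 and -0.25 on 20 WT arrays. On the single mRNA arrays against WT at 30 °C, the SNF2 probe was at -0.53 on the array labelled snf2 deletion, and at -0.55 on that labelled chd1 deletion; at 39 °C it was at -1.51 and -0.50. The mRNA arrays are therefore called "labelled snf2 deletion" below. For the stationary arrays of acetylated H4, the sample descriptions name an anti-Myc antibody, and whether that is a slip of the label was not tested.

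Heat shock in yeast induces chaperones through Hsf1 and a broad set of protective and carbon reserve genes through Msn2 and Msn4, while ribosome production falls. In stationary phase, nutrients have run out: glucose-fed fermentation has ended, cells respire, and much of growth-related transcription is shut down. Amino acid synthesis genes are controlled by Gcn4 and by pathway regulators such as Met4 for sulphur and Bas1 for histidine. Nucleosomes, the spools of DNA around histones that include H4, are often lost from strongly transcribed genes, and acetylation of H4 commonly marks active chromatin. SWI/SNF is a chromatin remodeller that moves and evicts nucleosomes at inducible genes.

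The heat-higher genes contained mitochondrial, sugar-metabolism and protein-folding genes. CYC7, the isoform of cytochrome c made in stress and low oxygen, was at 2.57, 1.78 and 2.54 on the 3 heat shock arrays and at -0.80, -1.67 and -1.30 on the 3 stationary arrays. RGI1, a gene known for its induction in respiratory growth, had the highest heat shock mean of the set, with 2.40, 2.73 and 2.31 after heat shock and -0.46, -1.19 and -0.80 in stationary phase. SSC1, the mitochondrial Hsp70 that draws proteins into the matrix and folds them, was at 1.38, 1.56 and 1.10 after heat shock and -1.04, -0.75 and -1.33 in stationary phase. In all 3 genes every heat shock array lay above 0 and every stationary array below it.

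The deepest stationary values belonged to CWP1, a mannoprotein of the cell wall, at -4.35, -4.64 and -4.11, while its heat shock values were modest at 0.60, 1.02 and 0.72. ADH1, the main fermentative alcohol dehydrogenase, was at 1.26, 0.97 and 0.64 after heat shock and -2.07, -2.34 and -1.92 in stationary phase. Its glucose-repressed paralog ADH2 gave 1.13, 0.61 and 0.57 after heat shock and -1.80, -2.12 and -2.02 in stationary phase. The pair is similar in sequence and may share signal on such probes, so they do not count as separate observations. CAR1, the arginase that breaks arginine down, averaged 1.04 ± 0.24 after heat shock and -2.08 ± 0.36 in stationary phase (SD, n = 3 each). HXT2, a high-affinity glucose transporter, averaged 0.91 ± 0.27 and -1.69 ± 0.33 in the same order. Invertase, SUC2, which splits sucrose outside the cell, averaged 1.09 ± 0.20 after heat shock and -0.71 ± 0.11 in stationary phase.

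Among the protein-folding members, PDI1, the disulphide isomerase of the endoplasmic reticulum, averaged 0.80 ± 0.37 after heat shock and -1.23 ± 0.32 in stationary phase. SBA1, the p23 co-chaperone of Hsp90, averaged 0.88 ± 0.33 and -0.71 ± 0.55, with a weak -0.09 on the first stationary array. NPL3, an RNA-binding protein of mRNA export, averaged 1.25 ± 0.24 and -0.91 ± 0.40. Its neighbour by ORF number, YDR433W, averaged 1.24 ± 0.33 and -1.12 ± 0.14. YCL041C, next to PDI1 in the same way, averaged 1.43 ± 0.11 and -0.70 ± 0.92. Neither is in the annotation used, and whether these probes read the neighbouring transcript was not tested. TPM2 (a minor tropomyosin), RSM18 (a mitochondrial ribosomal protein), DOG1 (a sugar phosphate phosphatase), UGP1 (which makes UDP-glucose), STE24 (a protease that matures a-factor) and YOL014W complete the 20, with heat shock means between 0.75 and 0.88 and stationary means between -1.19 and -0.62.

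The heat-lower genes held many amino acid and S-adenosylmethionine genes. ARG4, argininosuccinate lyase, was at -1.67, -1.24 and -1.80 after heat shock and at 2.28, 2.81 and 2.23 in stationary phase. ARG7, which acts earlier in arginine synthesis, averaged -1.28 ± 0.33 after heat shock and 1.60 ± 0.32 in stationary phase. ARG1, argininosuccinate synthetase, was weaker after heat shock at -0.50, -0.33 and -1.25, and reached 3.13, 3.64 and 2.85 in stationary phase. These arginine-making enzymes and the arginine-degrading CAR1 thus lay on opposite sides of the rule.

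In the sulphur pathway, SAM2, 1 of a pair of S-adenosylmethionine synthetases, was at -1.38, -1.07 and -1.85 after heat shock and 1.49, 1.42 and 1.31 in stationary phase. Its paralog SAM1 averaged -1.60 ± 0.46 and 0.64 ± 0.15; the probes of this pair, too, may share signal. MET6, methionine synthase, averaged -0.91 ± 0.47 after heat shock and 1.74 ± 0.09 in stationary phase. CYS4, which makes cystathionine from homocysteine, averaged -1.07 ± 0.41 and 1.23 ± 1.06, and its stationary values of 0.89, 2.41 and 0.38 varied most among these genes. SAM3, the S-adenosylmethionine permease, averaged -0.73 and 2.0. HIS4 and HIS7, of histidine synthesis, averaged -1.12 and -1.09 after heat shock, with 1.22 and 1.00 in stationary phase. BAS1, a regulator of histidine and purine genes, averaged -0.83 and 0.92.

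Zinc genes also fell under this rule. ZRT1, the high-affinity zinc importer, was at -0.79, -0.22 and -0.98 after heat shock and at 2.43, 1.98 and 1.47 in stationary phase. ZAP1, the zinc-sensing activator, averaged -0.86 and 0.87, ZRT3, which releases zinc from the vacuole, averaged -0.77 and 0.75, and the zinc-regulated ZPS1 averaged -0.64 and 0.76. ZPS1 was not above 0 on every stationary array, with -0.11 on the second.

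The mating genes AGA1 (the anchor of a-agglutinin), GPA1 (the pheromone G-protein alpha subunit) and STE12 (the pheromone transcription factor) averaged -0.65, -0.85 and -0.87 after heat shock. In stationary phase they averaged 3.07, 0.63 and 0.62. STE24, of the same list of mating genes, went the other way and is a heat-higher gene. BIO2, biotin synthase, averaged -0.87 ± 0.17 and 2.56 ± 0.05. YGL117W, named ARO5 in the annotation, averaged -1.24 ± 0.28 and 3.01 ± 0.40. PRY1, a secreted sterol-binding protein, had the lowest heat shock mean of the set, -1.97 ± 0.22, and 1.35 ± 0.21 in stationary phase. OLE1, the fatty acid desaturase, had -1.94, -1.76 and -1.92 after heat shock, while its stationary values of 0.30, 1.60 and 0.20 owed most to 1 array. YHB1, the flavohaemoglobin that detoxifies nitric oxide, averaged -1.48 ± 0.33 and 1.12 ± 0.22. The other members were IDP1 (mitochondrial isocitrate dehydrogenase), TPO5 (a polyamine exporter), YMC1 and YMC2 (mitochondrial carriers, a paralog pair), SFM1, CCS1 (the copper chaperone of superoxide dismutase), AST1, RDS1, WSC4 (a cell surface stress sensor), MIG2 (a glucose repressor), RHO5, PMA2 (the minor plasma membrane proton pump, a paralog of PMA1) and YMR151W. Their heat shock means lay between -1.23 and -0.62 and their stationary means between 0.60 and 1.32.

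**Figure D1:**
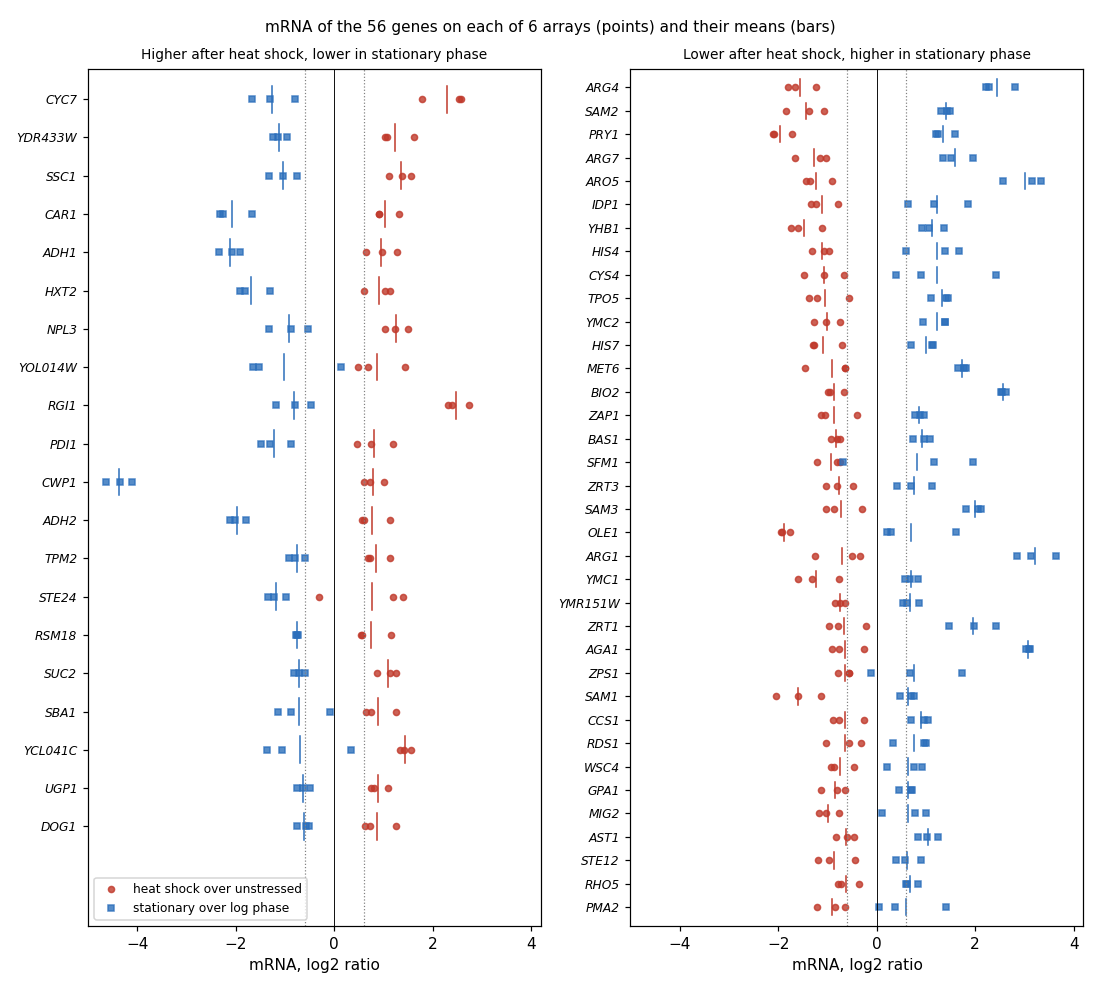
log2 mRNA ratios (horizontal axes) of the 20 heat-higher genes (left) and the 36 heat-lower genes (right) on 3 heat shock arrays (red circles) and 3 stationary arrays (blue squares), with bars at the means and dotted lines at the 0.6 limits of the rule. In most rows the red and blue points lie on opposite sides of 0, and YOL014W, STE24, YCL041C, SFM1 and ZPS1 each have 1 array on the other side.

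The plot of all members by array shows that 17 of the 20 heat-higher and 34 of the 36 heat-lower genes had their direction on all 6 arrays. At least 0.6 on every one of the 6 arrays was reached by 8 and 12 genes. With 1 of the 6 arrays left out in turn, 12 and 17 genes met the rule every time; without heat shock array 2, which held the weakest fall for many heat-lower genes, that set grew to 48. Just inside the limit lay DOG1 (-0.62 in stationary phase), UGP1 (-0.63) and YCL041C (-0.70) on one side, and PMA2 (0.60), STE12 (0.62) and RHO5 (-0.62 after heat shock) on the other. Just outside were CRS5 (2.20 after heat shock, -0.60 in stationary phase), ADH3 (0.78, -0.56) and CDC28 (0.86, -0.56), and SST2 (-0.60, 1.00), VHT1 (-0.59, 3.78) and THI3 (-0.59, 0.67). Because these arrays chose the members, their values on them are a description only; over all ORF probes, 17.2% passed the test as higher and 17.4% as lower after heat shock, and 18.2% as higher and 18.3% as lower in stationary phase. Nothing is read from these shares for the members.

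The members were spread over the genome. They lay on 10 chromosomes (heat-higher) and 13 (heat-lower) of 16, and 3 pairs were neighbours: NPL3 with YDR433W, PDI1 with YCL041C, and TPO5 with ZRT3. Annotated length had a median of 1024 bp in 18 heat-higher and 1326 bp in 35 heat-lower genes, against 1248 bp over all annotated ORFs. A promoter probe, meaning the spotted region upstream of the ORF, could be placed for 14 heat-higher and 34 heat-lower genes. In 8 and 17 of these the region lies between divergent genes and so serves both. A change at such a probe cannot be assigned to the member alone. Among all ORFs with a promoter probe the share between divergent genes was 51.7%. CWP1, PDI1, SBA1, UGP1, YDR433W and YCL041C, and SAM3 and YMR151W, had none.

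Gene lists of the pathways the members belong to are described by counts on the same 6 arrays, which include the members that the rule chose there, and on the WT time course at 900 s, which the rule did not use. Beside all list counts stand the shares over all ORF probes given above for the 6 arrays, and at 900 s shares of 11.4% higher and 15.3% lower. Of 35 measured genes of methionine and sulphur assimilation, with 5 heat-lower members, 4 were called higher and 10 lower after heat shock, and 25 higher and 3 lower in stationary phase; at 900 s, 2 rose and 9 fell. Of 14 arginine and ornithine genes, 5 were higher and 3 lower after heat shock and 8 higher and 2 lower in stationary phase. The 3 lower after heat shock were the heat-lower members ARG1, ARG4 and ARG7, and CAR1 was among the 5 higher. The median over the list after heat shock was 0.188. At 900 s, 2 rose and 3 fell. Of 63 other amino acid synthesis genes, home of HIS4 and HIS7, 10 were higher and 26 lower after heat shock and 20 higher and 8 lower in stationary phase; at 900 s, 3 rose and 35 fell. In a zinc list of 15 genes, drawn up after the members were seen, 2 were higher and 6 lower after heat shock. In stationary phase 5 were higher and 1 lower, and at 900 s none rose and 2 fell. Of 31 thiamine, biotin and NAD genes, home of BIO2, 10 were higher and 2 lower after heat shock. In stationary phase 16 were higher and 1 lower, and at 900 s 2 rose and 4 fell. Of 20 fatty acid and phospholipid synthesis genes, home of OLE1, 1 was higher and 8 lower after heat shock. In stationary phase 7 were higher and 2 lower, and at 900 s 2 rose and 7 fell. Of 43 mating genes, 10 were higher and 10 lower after heat shock and 19 higher and 5 lower in stationary phase. At 900 s, 4 rose and 8 fell. This list held STE24 of the heat-higher set and GPA1, STE12 and AGA1 of the heat-lower set.

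Of 31 chaperones, which include SSC1 and SBA1, 29 were higher and 1 lower after heat shock. In stationary phase 14 were higher and 4 lower, and at 900 s 27 rose and 1 fell. Of 43 secretory pathway and protein-folding genes, home of PDI1, 6 were higher and 8 lower after heat shock. In stationary phase 1 was higher and 18 lower, and at 900 s 5 rose and 9 fell. Of 22 genes of glycolysis and fermentation, home of ADH1 and ADH2, 11 were higher and 2 lower after heat shock. In stationary phase 4 were higher and 4 lower, and at 900 s 8 rose and 2 fell. Of 23 hexose transport genes, with HXT2 heat-higher and MIG2 heat-lower, 6 were higher and 4 lower after heat shock. In stationary phase 3 were higher and 1 lower, and at 900 s 6 rose and 1 fell. Of 33 oxidative phosphorylation genes, among them CYC7, 23 were higher and 1 lower after heat shock. In stationary phase 11 were higher and 3 lower, and at 900 s 11 rose and none fell. Of 64 mitochondrial ribosome genes, among them RSM18, 7 were higher and 5 lower after heat shock. In stationary phase 1 was higher and 31 lower, and at 900 s 2 rose and 2 fell. Of 34 general stress genes, among them UGP1, 29 were higher and none lower after heat shock. In stationary phase 21 were higher and 1 lower, and at 900 s 30 rose and none fell. Of 19 trehalose and glycogen genes, again with UGP1, 10 were higher and 3 lower after heat shock. In stationary phase 7 were higher and 3 lower, and at 900 s 9 rose and none fell. Of 49 cell wall genes, with CWP1 heat-higher and PRY1 heat-lower, 13 were higher and 15 lower after heat shock. In stationary phase 13 were higher and 9 lower, and at 900 s 10 rose and 11 fell. Proteasome genes had no member. Of 33, 10 were higher and none lower after heat shock, and 1 was higher and 8 lower in stationary phase, while 7 rose at 900 s.

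The time course gave arrays that the rule had not used. At 900 s of heat shock in WT, 9 of the 20 heat-higher genes rose and none fell, where 11.4% of all 6053 ORF probes tested rose. RGI1 was at 3.27 and 3.69 at 900 s, against -0.04 and -0.17 at 0 s (log2 difference 3.58, SE 0.19, adjusted p = 4.8e-05). SSC1 was at 2.50 and 2.42, against 0.24 and 0.20 (2.24, SE 0.17, adjusted p = 0.00017). CYC7 was at 0.85 and 2.60, against -0.12 and -0.44 (2.0, SE 0.51, adjusted p = 0.028), so its 900 s arrays stood far apart though both lay above both 0 s arrays. UGP1 rose by 1.47, STE24 by 1.32, CWP1 by 1.13, YOL014W by 0.74, YCL041C by 0.67 and PDI1 by 0.66. With arrays scaled to equal spread, CWP1 (0.64), YOL014W (0.36), YCL041C (0.28) and PDI1 (0.13) no longer passed. The other 11 did not pass, and the 20 ranged from -0.09 to 3.58 with a median of 0.62, against -0.01 over all ORFs; with scaled arrays that median was 0.10.

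Of the 36 heat-lower genes, 23 fell at 900 s in WT and none rose, where 15.3% of all ORF probes fell. YMC2, a mitochondrial carrier, was at -2.56 and -2.58 at 900 s, against -0.34 and -0.19 at 0 s (-2.31, SE 0.16, adjusted p = 0.00012). SAM1 was at -1.77 and -2.58, against 0.13 and 0.00 (-2.25, SE 0.28, adjusted p = 0.0015). CYS4 was at -1.29 and -1.38, against 0.68 and 0.24 (-1.80, SE 0.20, adjusted p = 0.00084). In each of these genes the 900 s and 0 s arrays did not overlap. YMC1, YHB1, OLE1, ZRT1, HIS4 and PRY1 were at -1.83, -1.77, -1.64, -1.59, -1.54 and -1.52 against 0 s, and the rest of the 23 between -1.40 (ARG4) and -0.57 (PMA2). The median over the 36 was -0.83, and -0.64 with scaled arrays, where ZRT1 (-0.15), ARO5, BIO2, ARG7, AGA1 and PMA2 no longer passed. Without the first or the second WT 0 s array, calls over both sets numbered 17 and 19 in place of 32, and 16 genes were called whichever array was left out.

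Both sets changed between 60 and 300 s. In WT the median of the heat-higher genes, as the log2 difference from 0 s, was 0.02 at 30 s, 0.01 at 60 s, 0.73 at 300 s and 0.62 at 900 s. For the heat-lower genes it was -0.01, -0.04, -0.62 and -0.83 at the same times. Most times have 1 array, so single values carry no replicate check. HXT2 stood at 2.32 above its 0 s level at 300 s and at -0.09 at 900 s, and CWP1 at 2.03 and 1.13. SAM2 moved the other way round, with 0.00 at 300 s and -1.35 at 900 s.

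**Figure D2:**
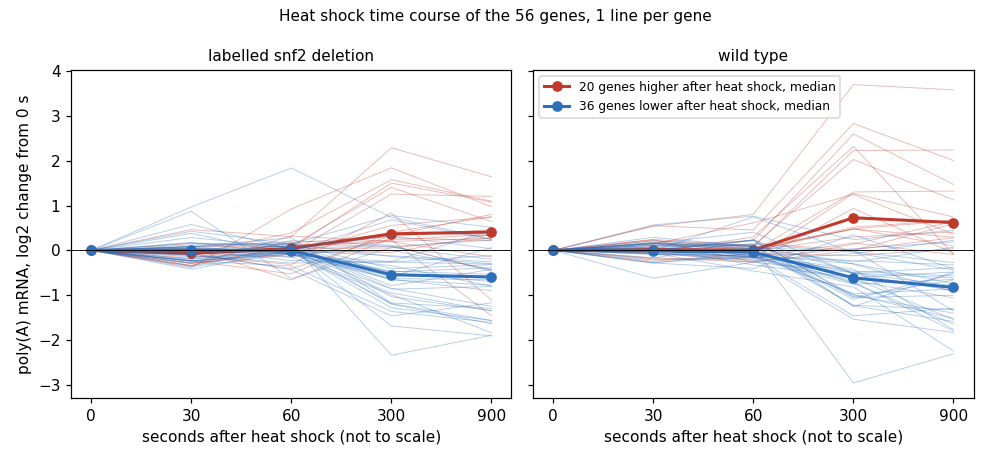
Poly(A) mRNA as log2 change from 0 s (vertical) at 30, 60, 300 and 900 s (horizontal, not to scale) on arrays labelled snf2 deletion (left) and in wild type (right), with thin lines for single genes and thick lines for the median of the 20 heat-higher (red) and 36 heat-lower genes (blue). Both medians stay near 0 to 60 s and part by 300 s, when they are 0.73 and -0.62 in wild type.

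On the arrays labelled snf2 deletion, fewer members passed at 900 s, where there is a single array that the fit assumes to vary like the others. Of the heat-higher genes 4 rose (RGI1 by 1.64, STE24 by 1.20, UGP1 by 1.10 and SSC1 by 1.08) and CAR1 fell to -1.46, where 3.98% of all ORF probes rose and 5.2% fell. Of the heat-lower genes 11 fell, ARG4 the most at -1.91, followed by YMC2 at -1.90 and OLE1 at -1.84, and none rose. Leaving out the first or the second 0 s array labelled snf2 deletion gave 8 and 7 calls in place of 16, and scaling the arrays gave 7, without SSC1, STE24, UGP1 and CAR1. The test of the difference in response between these arrays and WT passed for no member, where 0.33% of all ORF probes passed it; 5 of the 20 and 7 of the 36 had an unadjusted p under 0.05, as did 767 of all 6053 ORF probes. Without the first WT array at 900 s, 1 member passed.

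Before heat shock, 12 members differed between the arrays labelled snf2 deletion and WT. CWP1 was at -2.15 and -2.17 on the arrays labelled snf2 deletion, against 0.08 and 0.47 in WT (-2.43, SE 0.19, adjusted p = 0.0023). RGI1 was at -1.80 and -1.87, against -0.04 and -0.17 in WT (-1.73). CYS4 was at -1.54 and -1.77, against 0.68 and 0.24 in WT (-2.11, SE 0.20, adjusted p = 0.005). These 3 had no overlap between the groups. Among the heat-higher genes CAR1 was higher and CWP1, RGI1, ADH1, ADH2 and UGP1 were lower (1 and 5 of 20), where ADH1 and ADH2 may share signal. Among the heat-lower genes ARG4 and ARG7 were higher and CYS4, YHB1, WSC4 and SAM2 were lower (2 and 4 of 36), where 1.98% of all ORF probes were higher and 2.86% lower. With 1 array left out, calls numbered 5 and 2 without the first and second array labelled snf2 deletion and 0 and 2 without the first and second WT array, and none of the 12 genes was called every time.

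A further single array labelled snf2 deletion against WT at 30 °C did not give the same picture for every gene. YHB1 was at -3.80, ZRT1 at -4.69 and WSC4 at -0.96 on it, and CAR1 and ARG4 at 1.28 and 1.06. CWP1, UGP1 and ADH1, lower on the time course arrays labelled snf2 deletion at 0 s, were at 0.92, 1.47 and 0.59, on the side opposite to the time course. That array compared total RNA and the time course poly(A) RNA. The bearing of this difference on the values was not tested.

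On the single WT array of 39 °C against 30 °C, which the rule had not used, 10 of the 20 heat-higher genes were at 0.6 or more, where 16.5% of all ORF probes were, and 25 of the 36 heat-lower genes were at -0.6 or less, where 19.3% of all were. With 1 array there is no test. RGI1 was at -0.24, 2.38, 3.18 and 4.17 on the arrays labelled snf2, chd1, isw1 and isw2 deletion and at 3.06 in WT. YHB1 was at -0.17, -3.11, -2.48 and -3.10 on these 4 arrays and at -3.13 in WT. ZRT1 was at -0.27, -4.04, -3.46 and -3.99 on the same arrays and at -3.31 in WT. For these 3 genes the array labelled snf2 deletion stood near 0 and the other 4 far from it. The time course did not show this for ZRT1, which stood at -1.61 at 900 s against 0 s on the arrays labelled snf2 deletion and at -1.59 in WT. In the same order RGI1 stood at 1.64 and 3.58, and YHB1 at -0.20 and -1.77. YHB1 and ZRT1 had also been low on the array labelled snf2 deletion against WT at 30 °C.

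The medians of the heat-lower genes were -0.28 on the array labelled snf2 deletion, -1.63, -1.25 and -1.04 on those labelled chd1, isw1 and isw2 deletion, and -0.90 in WT. The medians of the heat-higher genes were 0.84, 0.07, 0.44 and 0.52 on these arrays in the same order, and 0.71 in WT. OLE1, with -1.80 on the array labelled snf2 deletion and -2.08 in WT, shows that not every heat-lower gene was near 0 there.

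H4 was next compared between heat-shocked and unstressed cells on the direct arrays, which are independent of the rule. Of the heat-higher ORF probes, 5 of 20 lost H4 and 1 gained it, where 8.86% of all ORF probes lost and 11.0% gained. SSC1 gave -1.16, -1.25 and -0.95 over its ORF (mean -1.12, SD 0.15, adjusted p = 0.000291) and -0.79, -1.27 and -0.89 over its promoter (mean -0.98, SD 0.25, adjusted p = 0.00156). RGI1 gave -0.89, -0.89 and -0.81 over its ORF (mean -0.86, SD 0.05, adjusted p = 0.000312), and its promoter loss was smaller at -0.27. All 3 arrays showed the loss at both genes. YCL041C (-0.87), UGP1 (-0.68) and PDI1 (-0.40) also lost H4 over the ORF, and YDR433W gained, with 0.30.

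Of 14 heat-higher promoter probes, 5 lost H4 and none gained, where 13.8% of all promoter probes lost and 8.42% gained. Beside SSC1 and RGI1 these were ADH1 at -0.75, -0.72 and -0.53 (mean -0.67, SD 0.12, adjusted p = 0.0016), SUC2 at -0.29 and CYC7 at -0.26. The SSC1, SUC2 and CYC7 probes lie between divergent genes. The partner of SSC1, TAH11, averaged 2.20 on the heat shock mRNA arrays, so this promoter loss cannot be assigned to SSC1 alone. The other heat-higher ORFs were close to 0: the median over the 20 was -0.02, against 0.02 over all ORF probes. Loss of H4 was found at a few of these genes.

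Over the heat-lower ORFs the change in H4 lay between -0.17 and 0.39. H4 rose over 11 of 36 ORFs and fell over none, where 11.0% of all ORF probes rose and 8.86% fell. Of the 36, 30 were above 0, with a median of 0.14, against 0.02 over all ORF probes. WSC4 was at 0.34, 0.20 and 0.47 (mean 0.34, SD 0.14, adjusted p = 0.0199), HIS4 at 0.39, 0.45 and 0.17 (mean 0.34, SD 0.14, adjusted p = 0.0214), and CYS4 at 0.22, 0.38 and 0.39 (mean 0.33, SD 0.10, adjusted p = 0.0158). YMC2 also rose by 0.33, and MIG2, SAM3, GPA1, SAM2, ARO5, YMC1 and RHO5 by 0.21 to 0.31, with RHO5 not passing on scaled arrays. All of these arrays lay above 0.

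Of 34 heat-lower promoter probes 7 gained H4 and 2 lost it, where 8.42% of all promoter probes gained and 13.8% lost. ZRT1 gained most, at 0.63, 0.47 and 0.84 (mean 0.65, SD 0.18, adjusted p = 0.00372), followed by CYS4 at 0.48, 0.53 and 0.40 (mean 0.47, SD 0.07, adjusted p = 0.00416) and ZPS1 at 0.36, 0.40 and 0.29 (mean 0.35, SD 0.05, adjusted p = 0.0104). WSC4, PRY1, AGA1 and SFM1 gained 0.24 to 0.28, and YMC1 and RDS1 were at -0.22 and -0.21, both lost when arrays were scaled or left uncentred. The CYS4, ZPS1 and WSC4 probes are shared with a divergent gene. Over both sets 31 probes passed, 13 without array 1, 11 without array 2 and 39 without array 3. The 9 called whichever array was left out were SSC1 (ORF and promoter), RGI1, YCL041C, UGP1 and WSC4 (ORF), and the promoters of ADH1, CYS4 and ZRT1.

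Acetylated H4 was compared in the same way. Over heat-higher ORFs 6 of 20 fell and none rose, where 11.2% of all ORF probes fell and 14.0% rose. SSC1 was at -0.67, -1.62 and -0.83 (mean -1.04, SD 0.51, adjusted p = 0.00534) and RGI1 at -0.72, -1.06 and -0.98 (mean -0.92, SD 0.18, adjusted p = 0.00129). ADH2 was at -0.53, -0.64 and -0.41 (mean -0.53, SD 0.11, adjusted p = 0.00712), a gene whose H4 did not pass. YCL041C, UGP1 and ADH1 were at -0.48, -0.43 and -0.40, and the ADH1 and ADH2 probes may share signal. Of the 14 promoters 5 fell (SSC1, SUC2, CAR1, HXT2 and ADH2, with means of -0.86, -0.49, -0.35, -0.34 and -0.33) and 1 rose, where 19.2% of all promoter probes fell and 9.16% rose. The rise was at YOL014W, with 0.55, 0.63 and 0.44 (mean 0.54, SD 0.10, adjusted p = 0.00632). The SSC1, SUC2, CAR1 and ADH2 probes are shared with a divergent gene.

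Over heat-lower ORFs 8 of 36 rose and 1 fell, where 14.0% of all ORF probes rose and 11.2% fell. CYS4 was at 0.75, 0.85 and 0.68 (mean 0.76, SD 0.09, adjusted p = 0.00174). WSC4 was at 1.13, 0.13 and 1.09 (mean 0.78, SD 0.57, adjusted p = 0.019), so its second array was near 0. GPA1 and OLE1 rose by 0.52 and 0.51, and HIS4, ARG4, MIG2 and IDP1 by 0.29 to 0.46. HIS7 was the exception, at -0.60, -0.82 and -0.89 (mean -0.77, SD 0.15, adjusted p = 0.00224).

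Of the heat-lower promoters 4 of 34 rose and 10 fell, where 9.16% of all promoter probes rose and 19.2% fell. CYS4, at 0.53, 0.69 and 0.52 (mean 0.58, SD 0.09, adjusted p = 0.0048), PRY1, ZPS1 and OLE1 rose. YMC2 was at -0.66, -0.75 and -0.76 (mean -0.72, SD 0.05, adjusted p = 0.0019), SAM1 at -0.76, -0.53 and -0.72 (mean -0.67, SD 0.12, adjusted p = 0.00313) and HIS7 at -0.61, -0.71 and -0.68 (mean -0.66, SD 0.05, adjusted p = 0.00265). STE12 (-0.54), RDS1, PMA2, AST1, ARG7, BAS1 and BIO2 (-0.30) fell too, the last 2 not with uncentred arrays. The CYS4, ZPS1, OLE1, SAM1, PMA2, AST1, ARG7 and BAS1 probes are shared with a divergent gene. The medians of the heat-lower genes were 0.16 over ORFs and -0.06 over promoters, against 0.03 and -0.05 over all probes of each kind. Over both sets 35 probes passed, 21, 43 and 27 without arrays 1, 2 and 3, and 23 when promoter probes between divergent genes were left out. All 3 arrays lay on the same side of 0 at each probe whose values are given.

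In stationary phase H4 hardly passed at any member. MET6, at -0.54, -0.70 and -0.52 over its ORF (mean -0.59, SD 0.10, adjusted p = 0.042), was the sole call, and it was lost without the first or the second array. Over all ORF probes 1.98% rose and 0.924% fell, and over all promoter probes 1.71% rose and 0.264% fell. At an unadjusted p under 0.05 there were 4 of 20 heat-higher and 9 of 36 heat-lower ORFs, and 5 of 14 and 10 of 34 promoters, beside 1381 of all 6060 ORF and 881 of all 4159 promoter probes. The median over ORFs was 0.03 in the heat-higher and 0.00 in the heat-lower set.

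Acetylated H4 in stationary phase fell over 8 of the 36 heat-lower ORFs and rose over none, where 13.8% of all ORF probes fell and 6.01% rose. MET6 was at -0.92, -1.46 and -1.17 (mean -1.18, SD 0.27, adjusted p = 0.0136) and BIO2 at -0.74, -1.45 and -1.35 (mean -1.18, SD 0.38, adjusted p = 0.0162). SAM2, ARG1, ZAP1, HIS4, ZPS1 and ARG4 were at -0.83, -0.83, -0.76, -0.70, -0.62 and -0.62, of which SAM2, ZAP1 and ARG4 did not pass with scaled arrays. These genes had more mRNA, relative to the array median, in stationary phase, and all arrays of MET6, BIO2 and HIS4 were below 0. The share of 8 of 36 stands against that background of 13.8%. No heat-higher ORF passed, and 6 of 20 had an unadjusted p under 0.05, as did 2181 of all 6060 ORF probes.

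At the promoters, 6 of 34 heat-lower probes lost acetylated H4 and 3 gained it, where 6.42% of all promoter probes lost and 11.9% gained. HIS7 was at -1.33, -1.29 and -1.87 (mean -1.50, SD 0.32, adjusted p = 0.0126), HIS4 at -1.45, -0.82 and -1.78 (mean -1.35, SD 0.49, adjusted p = 0.0165) and RDS1 at -1.29, -1.41 and -0.63 (mean -1.11, SD 0.42, adjusted p = 0.0196). MET6, BIO2 and STE12 fell too. ARG7, whose probe is shared with RIM9, gained, at 1.08, 0.76 and 1.34 (mean 1.06, SD 0.29, adjusted p = 0.0156), as did YMC1 and BAS1. The MET6 and BAS1 probes are also shared with a divergent gene. Of the heat-higher promoters ADH1 gained, at 1.08, 0.65 and 1.42 (mean 1.05, SD 0.39, adjusted p = 0.0197), where ADH1 mRNA was low. In place of 18 calls, 14, 5 and 2 were made without arrays 1, 2 and 3, and HIS7 was the probe called each time.

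**Figure D3:**
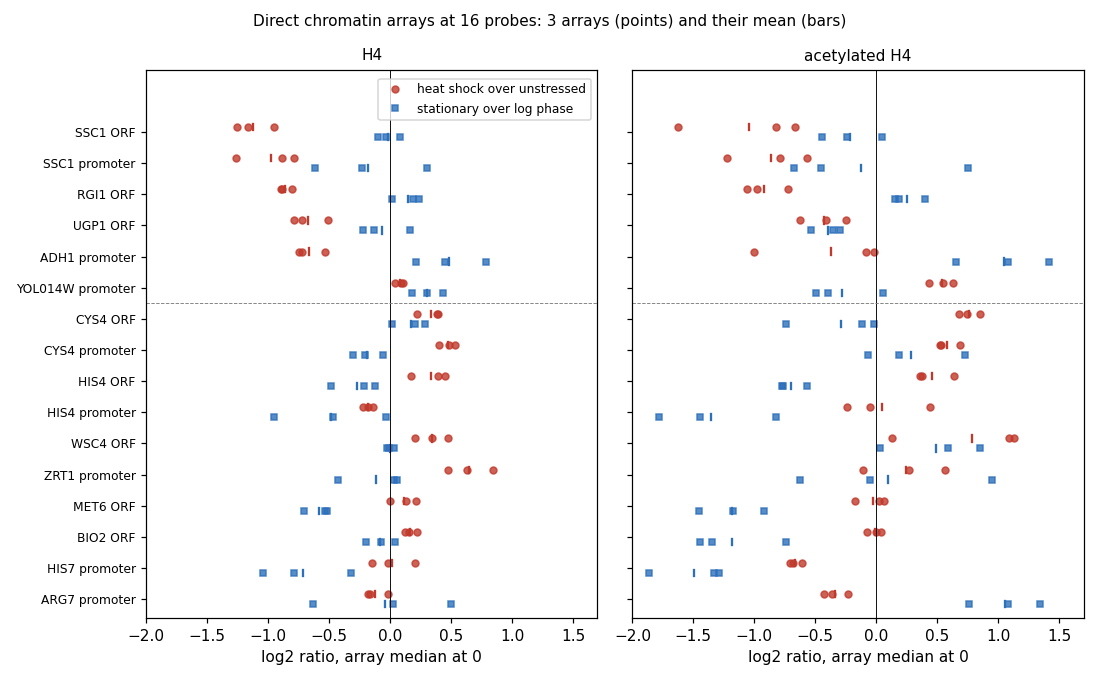
log2 ratios (horizontal) of H4 (left) and acetylated H4 (right) at 16 member probes on 3 heat shock arrays (red circles) and 3 stationary arrays (blue squares), with bars at the means; heat-higher genes are above the dashed line and heat-lower genes below it. The red points of SSC1 and RGI1 lie to the left in both panels, those of CYS4 to the right, and the blue points of MET6, BIO2 and the HIS7 promoter lie at -0.74 or lower in the acetylated H4 panel.

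The direct arrays of both stresses share no sample, so the change in heat shock could be set against the change in stationary phase by a test of the difference. For H4 it was lower in heat shock over 3 of 20 heat-higher ORFs: SSC1 differed by -1.11 (SE 0.11, adjusted p = 0.00264), RGI1 by -1.01 (SE 0.10, adjusted p = 0.00246) and UGP1 by -0.61 (adjusted p = 0.0406), the last not with uncentred arrays or the replicate block. None was higher, where 3.17% of all ORF probes were lower and 1.85% higher. Of the 14 promoters, ADH1 was lower, at -1.15 (SE 0.15, adjusted p = 0.00796), where 5.19% of all promoter probes were lower and 1.03% higher. The ADH1 promoter had H4 at -0.75, -0.72 and -0.53 in heat shock and at 0.79, 0.21 and 0.45 in stationary phase, with no overlap.

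For the heat-lower genes H4 was higher in heat shock than in stationary phase over 3 of 36 ORFs (MET6 by 0.70, ARG1 and HIS4 by 0.61) and lower over none, where 1.85% of all ORF probes were higher and 3.17% lower. Of 34 promoters it was higher at ARG1 (0.88, adjusted p = 0.0178), ZRT1 (0.76), CYS4 (0.66) and ARG4 (0.42), and lower at SAM1 (-0.67), where 1.03% of all promoter probes were higher and 5.19% lower. Medians were -0.17 over heat-higher and 0.17 over heat-lower ORFs, against 0.03 over all. In place of 12 calls, 2, 3 and 6 were made without heat shock arrays 1, 2 and 3, and SSC1 and RGI1 over the ORF were called each time.

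For acetylated H4 this comparison gave 27 calls. Over heat-lower ORFs the change in heat shock was above that in stationary phase at 10 of 36 and below it at none, where 15.9% of all ORF probes were above and 8.09% below. BIO2 differed by 1.17 (adjusted p = 0.0071), HIS4 by 1.16 (SE 0.15, adjusted p = 0.00295), MET6 by 1.15 (adjusted p = 0.00496), SAM2 by 1.13, CYS4 by 1.05, ZAP1 by 1.04, ARG4 by 1.01, ZPS1 by 0.90, ARG1 by 0.83 and IDP1 by 0.52. The median over the 36 was 0.31, against 0.11 over all ORF probes. Of the heat-higher ORFs RGI1 alone differed, at -1.17 (SE 0.16, adjusted p = 0.0032).

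At the promoters 4 of 34 heat-lower probes were above (HIS4, MET6, HIS7 and ZPS1) and 7 below, where 6.3% of all promoter probes were above and 19.2% below. ARG7 was lowest, at -1.40 (SE 0.18, adjusted p = 0.00288), with PMA2, BAS1, YMC1, SAM1, ZRT3 and YMC2 between -0.97 and -0.71. Of 14 heat-higher promoters YOL014W (0.82) and STE24 (0.57) were above, and ADH1 (-1.42, SE 0.30, adjusted p = 0.014), NPL3 (-0.58) and ADH2 (-0.58) below. The probes of MET6, ZPS1, ARG7, PMA2, BAS1, SAM1, ZRT3, NPL3 and ADH2 are each shared with a divergent gene. In place of 27, calls numbered 15, 12 and 16 without heat shock arrays 1, 2 and 3. With uncentred arrays NPL3, ADH2, YMC2 and ZRT3 did not pass, and with scaled arrays the HIS7 promoter did not.

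**Figure D4:**
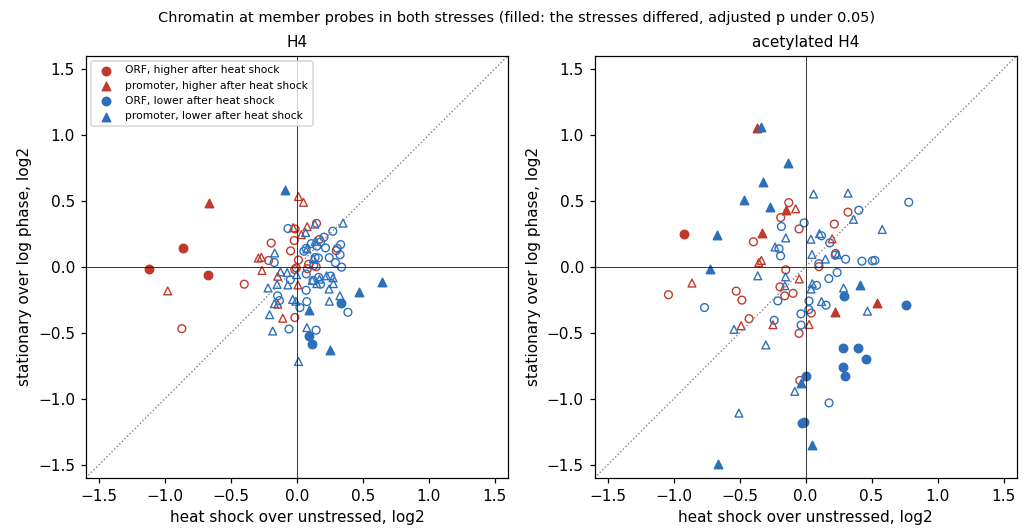
H4 (left) and acetylated H4 (right) change in heat shock (horizontal, log2) against the change in stationary phase (vertical, log2) at ORF (circles) and promoter probes (triangles) of the heat-higher (red) and heat-lower genes (blue), filled where the change differed between the stresses at an adjusted p under 0.05. Filled points off the dotted line of equal change include SSC1 and RGI1 at the left of the H4 panel and 10 heat-lower ORFs below the line in the acetylated H4 panel.

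The same states measured against genomic DNA gave fewer calls. For acetylated H4 in heat shock, 8 member probes passed, where 4.94% of all 13027 probes did. Of 20 heat-higher ORFs 2 fell, and of 36 heat-lower ORFs 2 rose and 1 fell. Over all 6060 ORF probes 109 rose and 178 fell. None of 14 heat-higher promoters passed and 3 of 34 heat-lower promoters fell. Over all 4159 promoter probes 47 rose and 200 fell. RGI1 was at -0.91, -1.15 and -1.30 over its ORF in heat-shocked cells, against -0.13, -0.25 and -0.32 in unstressed cells (-0.89, adjusted p = 0.00586). SSC1 was at -1.48, -1.50 and -1.78, against -0.73, -0.78 and -0.63 (-0.88, adjusted p = 0.00524). The HIS7 promoter was at -0.70, -0.34 and -0.58, against 0.37, 0.22 and 0.38 (-0.86, adjusted p = 0.00612). None of the 3 overlapped, and they were called whichever array was left out, while calls numbered 4 in place of 8 without any 1 of the unstressed arrays.

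CYS4 (0.64) and WSC4 (0.76) rose over the ORF by this route, and the HIS7 ORF (-0.76) and the SAM1 (-0.69) and YMC2 (-0.64) promoters fell, all in the direction of the direct arrays. For H4 in heat shock no member probe passed, where 0.307% of all probes did, and 6 of 20 and 6 of 36 ORFs and 2 of 14 and 4 of 34 promoters had an unadjusted p under 0.05, beside 670 of all 6060 ORF and 477 of all 4159 promoter probes. SSC1 was at -1.30, -0.98 and -1.07 in heat-shocked and -0.23, -0.32 and -0.52 in unstressed cells, and RGI1 at -1.16, -0.49 and -0.58 against -0.20, -0.31 and 0.10, so both had no overlap without passing. Leaving out the first heat shock array gave 6 member calls. In stationary phase neither H4 nor acetylated H4 passed at any probe of the array by this route (0.0% and 0.0%). At an unadjusted p under 0.05 there were 3 and 5 of the 20 heat-higher and 7 and 11 of the 36 heat-lower ORFs, and 1 and 2 of 14 and 3 and 6 of 34 promoters. Over the whole array these were 683 and 1006 of 6060 ORF and 454 and 818 of 4159 promoter probes. The median of acetylated H4 over heat-lower ORFs was -0.31 here, against -0.03 over all ORF probes.

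Acetylated H4 was also hybridised directly against H4. After heat shock this ratio passed at no member probe, where 0.0614% of all probes did; unadjusted p was under 0.05 at 3 of 20 and 5 of 36 ORFs and 2 of 14 and 6 of 34 promoters, beside 855 of all 6060 ORF and 675 of all 4159 promoter probes. In stationary phase 6 member probes passed, where 4.91% of all did. Of the ORFs, none of 20 heat-higher passed and 1 of 36 heat-lower was lower. Over all 6060 ORF probes 86 were higher and 175 lower. Of 14 heat-higher promoters 1 was higher and 1 lower, and of 34 heat-lower promoters 2 were higher and 1 lower. Over all 4159 promoter probes 169 were higher and 71 lower. The ADH1 promoter was at 1.43, 0.97 and 1.27 in stationary cells, against -0.01, 0.40 and 0.10 in log phase cells (1.06, adjusted p = 0.0391). The BIO2 ORF was at -0.52, -0.62 and -0.95, against 0.31, 0.54 and 0.26 (-1.07, adjusted p = 0.038), and the ARG7 promoter at 1.93, 1.69 and 1.46, against 0.89, 0.56 and 0.46 (1.05, adjusted p = 0.04). In these 3 the states did not overlap. The ARG1 promoter rose by 0.88, and the SAM2 and RSM18 promoters were at -1.91 and -1.96. All 6 calls were lost when any 1 array other than that of stationary set 3 was left out, and with scaled arrays.

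The chromatin time course resolved SSC1 and RGI1. In WT, H4 over the SSC1 ORF was at -0.07 and -0.35 at T0, at -0.81, -0.62 and -1.07 at T5, at -1.75, -1.34 and -1.33 at T30 and at -1.29, -0.68 and -1.12 at T900. Every array from T5 on was below both T0 arrays. At RGI1 the WT arrays stood at -0.21 and 0.21 at T0, at -0.14, -0.15 and -0.26 at T30, at -2.10, -0.86 and -0.82 at T300 and at -0.74, -0.36 and -0.65 at T900. RGI1 was thus low from T300 on, and SSC1 already at T5.

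In snf2 deletion cells H4 over the SSC1 ORF was at -1.28, -1.06 and -1.46 at T300, against -1.30, -0.91 and -1.10 in WT. Over the RGI1 ORF it was at -0.18, 0.04 and 0.35 at T300 in the deletion, against -2.10, -0.86 and -0.82 in WT. Acetylated H4 over RGI1 was at -0.38, 0.40 and -0.09 in the deletion, against -0.76, -1.61 and -0.95 in WT at the same time code. The strains overlapped at SSC1 and not at RGI1, where mRNA before heat shock had also stood apart on the arrays labelled snf2 deletion. UGP1 was at -0.97, -0.97 and -1.39 in the deletion, against -2.16, -1.37 and -2.49 in WT, with a slight overlap. The difference between strains on these arrays was not tested.

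**Figure D5:**
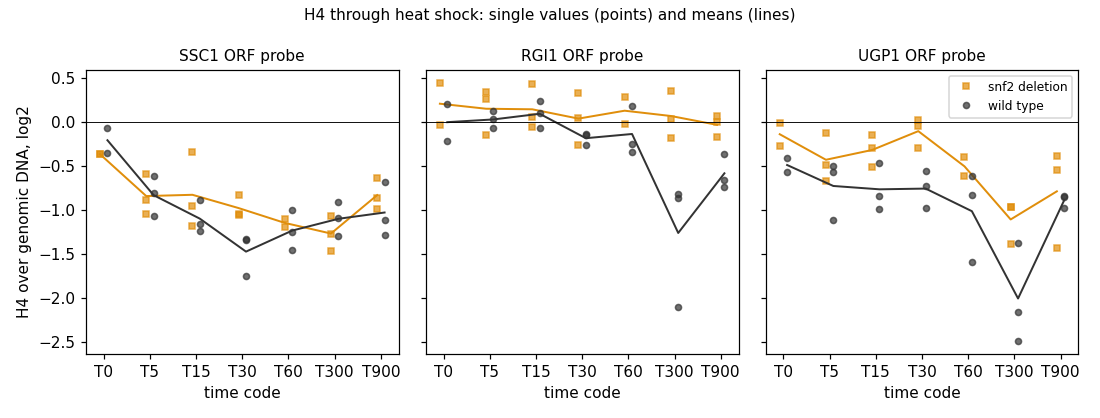
H4 over genomic DNA (vertical, log2) at 7 time codes of heat shock (horizontal, not to scale) at the ORF probes of SSC1, RGI1 and UGP1, in snf2 deletion (orange squares) and wild-type cells (black circles), with single values as points and lines through the means. The SSC1 values fall early in both strains, and at T300 the RGI1 values are -0.18 to 0.35 in the deletion and -2.10 to -0.82 in wild type.

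From T0 to T900 in WT, H4 passed at no member probe, where 0.0538% of all probes did; 3 of 20 and 2 of 36 ORFs and 0 of 14 and 2 of 34 promoters had an unadjusted p under 0.05, beside 206 of all 6053 ORF and 128 of all 4159 promoter probes. Acetylated H4 passed at 1 member, the HIS4 ORF, where 0.0614% of all probes passed. HIS4 was at 0.87, 0.88 and 0.88 at T900, against -0.12 and -0.42 at T0 (1.14, SE 0.21, adjusted p = 0.0337), and the call was lost without any T900 array or without the T0 array of set 3. In snf2 deletion cells acetylated H4 over HIS4 was already at 1.04 and 0.81 at T0, and at 0.90 and 0.82 at T900. For acetylated H4, the labels of the deletion arrays of sets 2 and 3 name DNA of the deletion strain as the partner, and those of WT name WT DNA, so strain and partner cannot be told apart there.

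Snf2 was last compared between heat-shocked and unstressed cells. No member probe passed, where 0.0614% of all 13020 probes tested did, and unadjusted p was under 0.05 at 8 of 20 heat-higher and 2 of 36 heat-lower ORFs and at 6 of 14 and 4 of 34 promoters, beside 853 of all 6053 ORF and 744 of all 4159 promoter probes. The level of Snf2 over input, as the median over the 20 heat-higher ORFs on each array, was 0.29 ± 0.15 in heat shock (SD, n = 5) and 0.01 ± 0.07 unstressed (SD, n = 3), with 0.09 as the lowest heat shock and 0.08 as the highest unstressed array. Over all ORF probes the level was -0.05 and -0.08, and over the heat-lower ORFs -0.18 and -0.15.

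UGP1 had the highest ORF difference, with 0.17, 1.27, 0.93, 0.92 and 0.36 in heat shock and -0.10, -0.41 and -0.71 unstressed (1.14, SE 0.26, adjusted p = 0.12). The RGI1 ORF was at 1.12, 0.64, 1.02, 0.82 and 0.40 in heat shock and -0.07, 0.49 and -0.07 unstressed, with 1 unstressed array inside the heat shock range. The SSC1 promoter was at 0.98, 0.84, 1.29, 0.89 and 0.44 in heat shock and 0.24, 0.05 and 0.10 unstressed (0.76, adjusted p = 0.14), with no overlap. These genes are among those that lost H4 on the direct arrays, and at none of them did the Snf2 difference pass.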

How the data were processed

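Values were the authors' log2 ratios as deposited, 1 table of 13029 probes on 167 arrays; that the deposited numbers are base 2 logarithms was checked from the values, since base 2 turned 100% of those checked into whole thousandths (tolerance 0.02), base e 6.6% and base 10 4.78%. Per the labels, the stressed or deletion sample is in the Cy5 channel and no dye was swapped, so dye bias cannot be told apart from the effect. The sources used here give neither scanner nor normalization. The table does not state the direction of its ratios or any centring; they were read as Cy5 over Cy3, by which 29 of 31 chaperone genes passed as higher after heat shock. As deposited, array medians lay between -0.144 and 0.259; each array was centred on its median, over 6060 ORF probes for mRNA and over all probes for chromatin. Tests were limma's (3.58.1, R 4.3.3) lmFit and eBayes, two-sided, with Benjamini-Hochberg adjustment over all probes tested and a threshold of 0.05; "rose", "fell", "lost" and "gained" mean passing it. Tables were compiled with Python 3.11.15, pandas 2.3.3 and numpy 2.4.6, and plots drawn with matplotlib 3.10.9. Time course fits pooled the spread over all times. Arrays carry no read depth, and their number limits the precision. 10 probes lacked a value on at least 1 array.

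Promoter probes were placed by ORF order for 5469 genes (4159 probes). Gene symbols came from RefSeq, whose table held 5624 of the ORFs. The members and gene lists were chosen with earlier results of these data known. Named genes were the 12 members per direction with the largest smaller mean, members of lists holding at least 2, the 4 leading members of each chromatin comparison, and the 3 on each side of the limit; others are named to account for every member, and were chosen after their values were seen. The probes drawn in the plots were also chosen so. Deviations from the group mean correlated between arrays of the same set number at 0.43 and 0.53 in the WT H4 time course (T900 and T0). For Snf2 these correlations were 0.12, 0.19 and 0.11, and for the stress comparison of acetylated H4 0.15, 0.24 and 0.17. The direct arrays of the 2 stresses share no sample, so a shared number there is no pair by the labels. Elsewhere the correlations lay between -0.30 and 0.29. No main fit paired arrays by set number. Some fits were also run on simulated data with independent noise for each probe and array. Those data hold no effect shared within a set or dye, and nothing is read from them here. Alternatives were centring, scaling, thresholds, a replicate block, leaving out single arrays and, added after seeing the data, leaving out promoter probes between divergent genes. No promoter sequences were used here.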

Additional observations from a re-analysis of the deposited data

Results flagged for a closer look

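Of 14 groups of 5 Snf2 heat shock arrays checked, 1 held a lone array: at the CYS4 promoter probe the array of set 4 stood at 0.05 (0.04786), while the others lay between -0.18 and -0.14, and its gap was 0.85 of the group's whole range, above Dixon's limit of 0.71. Chance alone gives such a gap in about 1 in 20 groups. The probes were picked after the chromatin results had been seen.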

How the results depend on the processing

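No result reversed. The counts of members, or of member probes passing, given here include those that moved by more than 1.5 times and some that moved less. With a limit of 0.8 the rule gave 10 heat-higher and 17 heat-lower genes, and with 0.5 it gave 60 heat-lower genes. With scaled arrays, calls on the mRNA arrays labelled snf2 deletion at 900 s fell to 7, H4 in stationary phase gave 2, acetylated H4 per H4 in stationary phase gave 0, and H4 against genomic DNA in heat shock gave 1, as it did uncentred. Without promoter probes between divergent genes, acetylated H4 in heat shock gave 23. With single arrays left out, the rule gave 17 to 24 heat-higher and 29 to 48 heat-lower genes. Calls then ranged from 17 to 31 for WT mRNA at 900 s, 7 to 8 for arrays labelled snf2 deletion, 0 to 1 for the difference in response and 0 to 5 before heat shock. They ranged from 11 to 39 for H4 and 21 to 43 for acetylated H4 in heat shock, and from 0 to 1 and 2 to 14 in stationary phase. For acetylated H4 per H4 in stationary phase the range was 0 to 6, against genomic DNA in heat shock 0 to 6 for H4 and 4 to 10 for acetylated H4, for the acetylated H4 time course 0 to 1, and for the stress comparisons 2 to 13 for H4 and 12 to 32 for acetylated H4. With a replicate block, the stress comparison of acetylated H4, whose 2 kinds of array share no sample, gave 35 calls instead of 27. For WT mRNA at 900 s the block gave 35 calls instead of 32. It left out ADH2 and SAM2 before heat shock, and UGP1 and the ARG4 promoter in the H4 stress comparison. The ADH1 promoter was left out in the ratio in stationary phase. Of the alternative counts 44 moved by more than 1.5 times and 156 did not. Among the medians compared, 155 were classed as moved and 485 as the same. Of 199 calls at member probes, counted over all comparisons so that a probe can recur, 63 were made under every alternative run. The causes were not tested.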
